A study of Mus musculus with 2 samples.

Results

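Mir7-1, Mir7-2, Mir7b and Mir671 are the mouse genes of the microRNAs that bind Cdr1as, a circular RNA of neurons. These 4 genes were chosen by name, and all 4 were found among the 2202 microRNA genes counted. The study sequenced RNA below 30 nt from 2 libraries of 1 group. Both came from wild-type female mice of strain B6NCrl, from tissue labelled as a layer of the hippocampus with no layer named. The labels number them biological replicates 1 and 2, with separate biosample records but a shared donor record. The age field holds no value. No label names the animals, so whether the spread between the libraries is one between animals is not known. The labels describe both as controls and name no treatment, so the 4 genes were described as levels and then compared between the libraries.

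A microRNA is cut from a hairpin, and its seed, bases 2 to 8 from the 5′ end, directs it to complementary sites in other RNAs. Cdr1as is known for a dense array of miR-7 sites and for a site at which miR-671 directs its cleavage. In the brain, miR-7 is also known as a target of the long noncoding RNA Cyrano, which triggers its destruction.

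Mir7-1, Mir7-2 and Mir7b make 5′ arms with the same seed, GGAAGAC, and these are shown to make visible how little separates them. Capitals mark the seed (RefSeq, GRCm38.p6, which matched all 4 genes).
mmu-miR-7a-5p: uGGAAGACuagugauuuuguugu
mmu-miR-7b-5p: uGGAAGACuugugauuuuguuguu
mmu-miR-671-5p: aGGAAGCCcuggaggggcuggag
miR-7a-5p comes from both Mir7-1 and Mir7-2. Counted from the 5′ end, miR-7b-5p differs from it by the substitution A10U over the 23 bases compared and is 1 base longer. No other of the 1679 mature names in the table has their seed. The seed of miR-671-5p, GGAAGCC, differs from the miR-7 seed by A7C and is found in no other mature microRNA of the table. The 3′ arms are less alike.
mmu-miR-7a-1-3p: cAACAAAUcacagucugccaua
mmu-miR-7a-2-3p: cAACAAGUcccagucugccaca
mmu-miR-7b-3p: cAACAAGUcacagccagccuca
mmu-miR-671-3p: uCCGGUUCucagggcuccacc
The 3′ arm of Mir7-1 differs from that of Mir7-2 by A7G, A10C and U21C, so the 3′ arms of these genes have different seeds. The 3′ arms of Mir7-2 and Mir7b share the seed AACAAGU and differ at 4 positions.

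The whole hairpins show where a read can be placed on a single gene. Capitals mark the mature arms.
Mir7-1: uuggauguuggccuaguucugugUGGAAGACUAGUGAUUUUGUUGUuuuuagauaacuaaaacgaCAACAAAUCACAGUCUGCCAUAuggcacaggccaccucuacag
Mir7-2: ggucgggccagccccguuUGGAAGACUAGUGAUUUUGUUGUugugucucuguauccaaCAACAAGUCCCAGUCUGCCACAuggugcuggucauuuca
Mir7b: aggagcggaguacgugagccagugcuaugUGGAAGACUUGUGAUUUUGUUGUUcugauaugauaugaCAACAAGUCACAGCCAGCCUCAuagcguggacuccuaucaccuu
Mir671: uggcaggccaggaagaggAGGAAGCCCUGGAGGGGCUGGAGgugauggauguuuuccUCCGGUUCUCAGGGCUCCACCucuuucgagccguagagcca
Mir7-1 and Mir7-2 share a stretch of 24 bases that holds all of miR-7a-5p. The longest stretch of Mir7b found in another annotated hairpin was 14 bases, in Mir7-2, and that of Mir671 was 13 bases. In the deposited tables a read that maps to several places is given to no gene. The counts of Mir7-1 and Mir7-2 therefore leave out reads that lie wholly within the shared stretch, and the level of miR-7a-5p itself cannot be read from them. Of the 18-base windows in Mir7-1, 84 of 91 lie at least partly outside it, and in Mir7-2 73 of 80 do. The tables give counts per gene and do not say which arm was counted.

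The 4 genes lie on different chromosomes and in different settings (mm10, GENCODE M21). Mir7-1 (ENSMUSG00000065434.1, chr13:58392779-58392886, minus strand) is intronic in Hnrnpk, an RNA-binding protein gene on the same strand. Mir7-2 (ENSMUSG00000065609.1, chr7:78888277-78888373, plus strand) overlaps no annotated gene, and the nearest, Aen, is 7480 bases away. Mir7b (ENSMUSG00000065491.1, chr17:56242988-56243098, plus strand) is also intergenic, 182 bases from the lincRNA AC026385.1. Mir671 (ENSMUSG00000076387.1, chr5:24592114-24592211, plus strand) lies wholly within coding sequence of an exon of Chpf2, a chondroitin synthesis gene, and opposite an exon of a retained-intron transcript of Smarcd3. No other microRNA gene was annotated within 10 kb of any of them. All 4 had 0 antisense counts in both libraries, where a count of 0 allows up to 3 counts, or 0.447 CPM in replicate 1 and 0.508 CPM in replicate 2. Their counts were the same with and without strand.

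The libraries held 6713867 and 5901107 counts on the sense strand of microRNA genes, in replicates 1 and 2, which were 42.5% and 41.3% of all reads. Reads that mapped to several places were 43.9% and 45.9%. CPM below is a gene's share of a library's sense counts, per 1e6 counts and not divided by hairpin length, which is 97 to 111 bases for the 4 genes, with intervals that cover counting error only. The neuronal list of 22 microRNA genes summed to 42504 and 42130 CPM in replicates 1 and 2, and 18 of its members had a mean of 10 or more counts. The list's members below that mean were Mir124a-1, Mir124a-2, Mir124a-3 and Mir9-2, of which Mir124a-2 had 0 counts in both. The other Mir9 genes of the list, Mir9-1 and Mir9-3, had mean levels of 52.9 and 37.1 CPM. Whether reads of the Mir124a and Mir9 copies were left out because they map to several places was not tested.

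Mir671 had the highest mean level of the 4 genes. It had 13186 counts in replicate 1 and 10085 in replicate 2, or 1964 CPM (exact 95% interval 1931 to 1998) and 1709 CPM (1676 to 1743). Its mean was 1836 ± 180 CPM (SD, n = 2), which ranked it 60th of all genes by mean, 63rd in replicate 1 and 59th in replicate 2. By mean it stood just below Mir137, a neuronal microRNA at 1860 CPM, and above Mir1249 at 1835 CPM.

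Mir7b was the most counted Mir7 gene and varied more. It had 12523 and 5267 counts, or 1865 CPM (exact 95% interval 1833 to 1898) in replicate 1 and 893 CPM (869 to 917) in replicate 2. Replicate 1 was thus the higher library. The mean was 1379 ± 688 CPM (SD, n = 2), ranked 76th, between Mir181d at 1380 CPM and Mir93 at 1349 CPM. The gap between Mir671 and Mir7b was smaller than the SD of Mir7b, and their values overlapped, since Mir7b in replicate 1 exceeded Mir671 in replicate 2.

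Mir7-2 and Mir7-1, the copies that make miR-7a-5p, were counted less. Mir7-2 had 1800 and 881 counts, or 268 CPM (exact 95% interval 256 to 281) and 149 CPM (140 to 159), a mean of 209 ± 84.0 CPM (SD, n = 2), ranked 160th. Mir7-1 had 354 and 149 counts, or 52.7 CPM (exact 95% interval 47.4 to 58.5) and 25.2 CPM (21.4 to 29.6), a mean of 39.0 ± 19.4 CPM (SD, n = 2), ranked 230th. Both were higher in replicate 1, and no value of Mir7-1 overlapped any of Mir7-2, or of Mir7-2 any of Mir7b. The gaps from Mir7b to Mir7-2 and from Mir7-2 to Mir7-1 exceeded the SD of each gene. This order is one of counts that could be placed on a gene, since reads wholly within the shared stretch are missing from the levels of Mir7-2 and Mir7-1. For scale, 466 genes had a mean of 10 or more counts, and the median of their mean levels was 37.7 CPM.

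**Figure D1:**
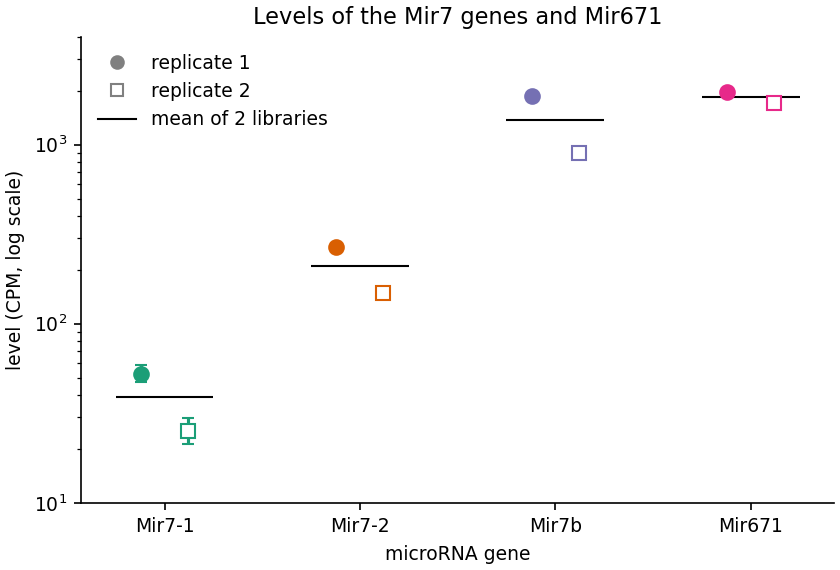
Level in CPM (log scale) of each gene in replicate 1 (filled circles) and replicate 2 (open squares), with exact 95% counting intervals and the mean of both libraries as a line. The Mir7 genes were lower in replicate 2, from 1865 to 893 CPM for Mir7b, while Mir671 went from 1964 to 1709 CPM.

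**Figure D2:**
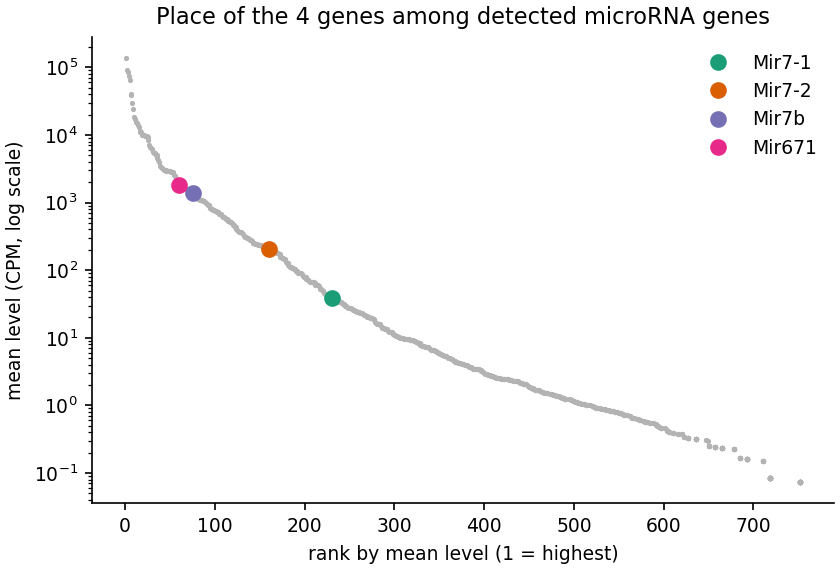
Mean level in CPM (log scale) of every microRNA gene with a count, against its rank, with the 4 genes in colour. Mir671 and Mir7b stood at ranks 60 and 76, Mir7-2 and Mir7-1 at 160 and 230.

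Together the Mir7 genes had 14677 counts in replicate 1 and 6297 in replicate 2, or 2186 and 1067 CPM, a mean of 1627 ± 791 CPM (SD, n = 2). Mir7b made up 85.3% of them in replicate 1 (exact 95% interval 84.7 to 85.9) and 83.6% in replicate 2 (82.7 to 84.5). Mir7-2 made up 12.3% (11.7 to 12.8) and 13.99% (13.1 to 14.9), and Mir7-1 2.41% (2.17 to 2.67) and 2.37% (2.01 to 2.77). The split among the genes thus stayed within 2 percentage points while the sum was lower in replicate 2. For every count on a Mir7 gene there were 0.898 counts on Mir671 in replicate 1 and 1.60 in replicate 2. The sum leaves out reads wholly within the stretch that Mir7-1 and Mir7-2 share. The shares and this ratio therefore describe counts placed on a gene and not the amount of miR-7.

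All 4 genes passed the comparison of the libraries, as did 57.5% of the 466 genes tested. The test was a 2-sided Fisher exact test of each gene's share of the counts with Benjamini-Hochberg adjustment, which compares 2 libraries and covers counting error only. All 4 were also called lower in replicate 2, against 35.6% of tested genes, where a call needs 1 sign of the ratio whether libraries are scaled by TMM (edgeR's trimmed mean normalization), by DESeq2 size factors or by totals. With 4 genes chosen by name, nothing is read from the difference between these shares.

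Mir7b was 1.87-fold lower in replicate 2, with a log2 ratio of -0.90 (counting SE 0.02) under TMM. Its Fisher exact p was too small to be stored as a number, so none is given. Mir7-1 was 1.86-fold lower, at -0.90 (SE 0.14, adjusted p = 2.09e-14, Fisher exact test). Mir7-2 was 1.61-fold lower, at -0.68 (SE 0.06, adjusted p = 1.24e-47, Fisher exact test). The Fisher exact p values refer to shares of the totals, under which the log2 ratios were -1.06 for Mir7-1 and -0.84 for Mir7-2. Over all tested genes the log2 ratios under TMM had a median of -0.02 and an SD of 0.82. Mir7b and Mir7-1 thus lay 1 SD or slightly more below 0. Genes with a ratio as low or lower numbered 43 for Mir7b, 45 for Mir7-1 and 69 for Mir7-2, so none of them stood at the edge of the distribution.

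Mir671 had nearly the same level in both libraries. Its log2 ratio was -0.04 (counting SE 0.02) under TMM. Size factors from DESeq2 gave -0.05, and totals gave -0.20, where the median of all tested genes was -0.18. Its adjusted p of 2.25e-25 (Fisher exact test) refers to shares of the totals, and the TMM ratio was 1.03-fold. Under TMM 227 of the 466 genes had a ratio as low or lower, which places Mir671 near the middle.

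**Figure D3:**
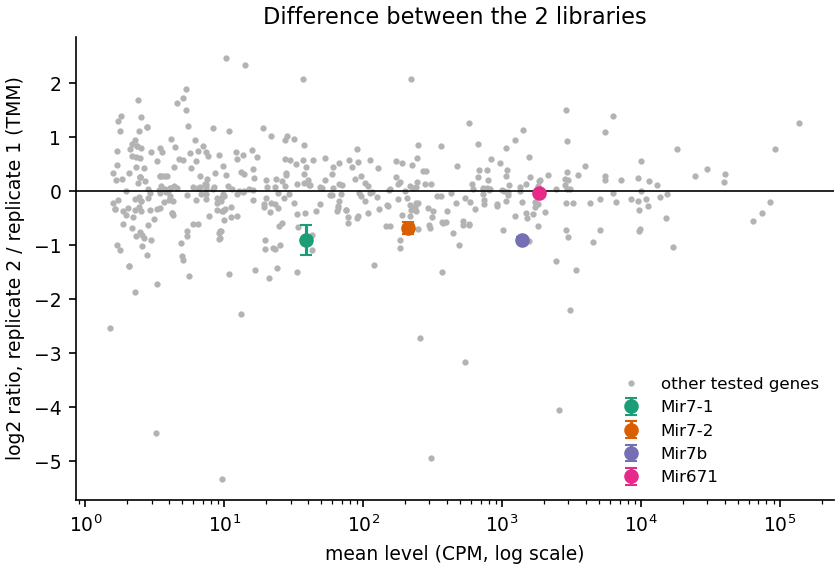
Log2 ratio of replicate 2 over replicate 1 (TMM) against mean level in CPM (log scale) for the 466 genes tested, with the 4 genes in colour and 95% counting intervals. The Mir7 genes lie between -0.68 and -0.90, and Mir671 lies at -0.04.

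Ratios between the 4 genes within a library do not depend on how the libraries are scaled. From replicate 1 to replicate 2 the log2 ratio of Mir7b to Mir671 went from -0.07 to -0.94, a change of -0.86 (95% counting interval -0.92 to -0.80). Mir7-1 to Mir671 changed by -0.86 (-1.14 to -0.58) and Mir7-2 to Mir671 by -0.64 (-0.77 to -0.52). All 3 Mir7 genes were therefore lower relative to Mir671 in replicate 2. For scale, the log2 ratios of single tested genes between the libraries had an SD of 0.82. Changes between other pairs of genes were not examined. Between Mir7-1 and Mir7b the change was 0.00 (-0.28 to 0.28), and between Mir7-1 and Mir7-2 it was -0.22 (-0.52 to 0.08). Mir7-2 rose relative to Mir7b by 0.22 (0.09 to 0.34).

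Lists of other cell types were called as follows, where 35.6% of all tested genes were called lower in replicate 2 and 18% higher. The oligodendrocyte list summed to 7078 CPM in replicate 1 and 3193 CPM in replicate 2 with 2 of 3 members lower, the endothelium and mural list to 8671 and 4402 CPM with 2 of 3 lower, and the erythrocyte list to 72.2 and 31.7 CPM with 2 of 2 lower. The astrocyte list summed to 62951 and 69720 CPM, with 2 of 6 members lower and 2 higher. The microglia and leukocyte list had 4 of 5 members lower and 1 higher and summed to 2025 and 2238 CPM. No member of these lists was at 0 in both libraries. Their part in the lower Mir7 counts was not tested. In bulk tissue fewer cells of a type and less RNA per cell cannot be told apart. Adapters were trimmed after a different document in each library, so trimming and tissue sample cannot be told apart either.

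Of the 18 neuronal genes tested, 6 were lower in replicate 2, 8 higher, 2 had a sign that depended on the scaling and 2 did not pass, against 35.6% lower and 18% higher over all tested genes. Their median log2 ratio was 0.16 under TMM, against -0.02 over all genes, and 0.00 under totals, against -0.18. Mir132, an activity-induced microRNA, led the list at 13806 ± 1791 CPM (SD, n = 2), with a log2 ratio of -0.10. Mir128-1 followed at 6248 ± 3570 CPM and was higher in replicate 2, at 1.40. Mir383 stood at 5070 ± 774 CPM with a ratio of -0.15. Mir485, at 2938 ± 184 CPM, had a sign that depended on the scaling. All 4 stood above Mir671 by mean.

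Genes nearest to each of the 4 by level in the 2 libraries, by distance of log2(CPM + 1), were found as a description. For Mir7b these were Mir98 of the let-7 family, at 2109 and 1001 CPM, then Mir130a and Mir341. For Mir7-2 they were Mir873a, at 268 and 149 CPM, Mir15a and Mir331, and for Mir7-1 Mir135a-2, at 51.1 and 24.6 CPM, Mir451a, an erythrocyte microRNA of the list above, and Mir193a. For Mir671 they were Mir409, at 1856 and 1781 CPM, Mir1839 and Mir1249. With only 2 libraries, likeness says no more than that these genes had similar levels in both.

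The shared target was then read from the reference. In GENCODE M21 the Cdr1as sequence lies in exon 6 of the lincRNA transcript ENSMUST00000231449.1 of C230004F18Rik, at chrX:61183248-61186174 (mm10, plus strand), opposite the gene Cdr1. This exon of 2927 bases held 123 matches to GTCTTCC, the complement of the miR-7 seed, and 1 match to GGCTTCC, the complement of the miR-671-5p seed. The other strand of the exon held 0 of either. Taking the first 2927 bases of the longest transcript of each other gene that is long enough, 12721 windows in all, 24.2% held GTCTTCC on the transcript strand and 31.1% on the other, and no window had more than 4 on the transcript strand. For GGCTTCC the shares were 28.9% and 32.3%. A single miR-671-5p seed match is thus common in a window of this length, whereas no window came near 123 miR-7 matches. The letters cannot overlap each other or themselves.

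The miR-7 matches were closely packed, with a median of 18 bases from the start of a match to the start of the next, a shortest distance of 17 and a longest of 109. They occupied 29.4% of the exon. The most frequent word around a match is shown with the match in capitals. It was present in 46 copies among the 123 matches, and the words next in frequency had 12 and 6 copies.
Repeated word: tccaaGTCTTCCc
The miR-671-5p match starts at base 2797 of the exon, between the miR-7 matches that start at bases 2779 and 2815, the latter being the last but 1.

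**Figure D4:**
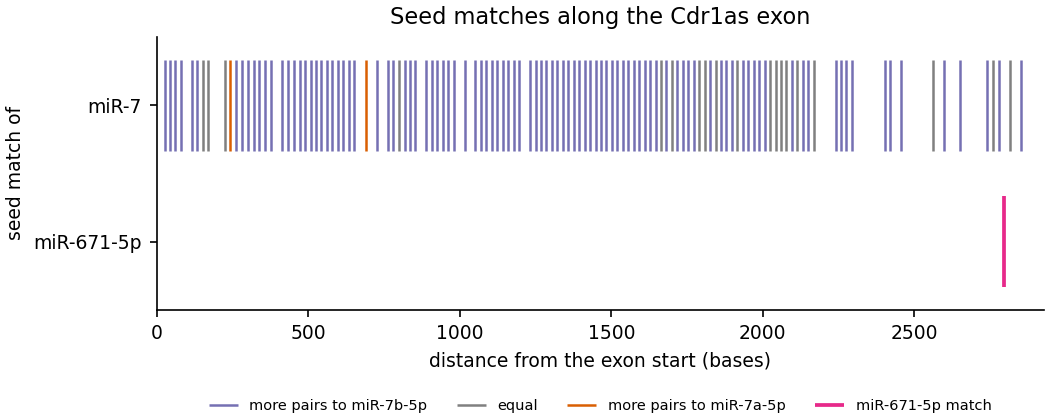
Start of each seed match along the exon, in bases from the exon start, for miR-7 (upper ticks, coloured by which form has more complementary bases) and miR-671-5p (lower tick). Of 123 miR-7 matches 102 have more complementary bases to miR-7b-5p, 2 to miR-7a-5p and 19 equally many.

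At the position by which miR-7a-5p and miR-7b-5p differ, the matches were complementary to miR-7b-5p. The base opposite position 10 was complementary to miR-7b-5p in 102 of 123 matches and to miR-7a-5p in 2 of 123. Over positions 1 to 23, without gaps, a match had a median of 14 bases complementary to miR-7b-5p (range 9 to 17) and of 13 to miR-7a-5p (range 8 to 16). Positions 12, 13 and 14 were complementary in 4, 5 and 1 of the matches. Positions 15 and 16 were complementary in 105 and 108. The unbroken run from position 2 was at most 10 bases for miR-7b-5p and at most 8 for miR-7a-5p. These counts describe letters of the reference and do not measure binding.

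**Figure D5:**
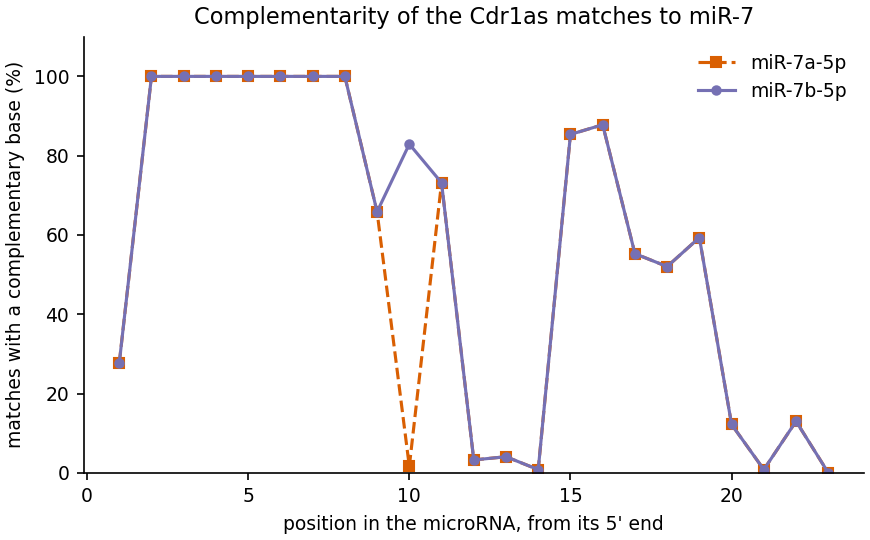
Percentage of the 123 matches with a complementary base at each position of miR-7a-5p (squares, dashed) and miR-7b-5p (circles), counted from the 5′ end without gaps. The curves coincide except at position 10, where they stand at 1.63% and 82.9%, and both are below 5% at positions 12 to 14.

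The miR-671-5p match had more complementary bases than any miR-7 match. Both are written 5′ to 3′ with the seed match in capitals, to compare the kinds of site.
miR-671-5p match: ttccagcatctccagGGCTTCCa
miR-7 match with most bases complementary to miR-7b-5p: ttccagaaaaatccaaGTCTTCCa
The miR-671-5p match (chrX:61186029-61186051) was complementary at 19 of 23 positions, all but 1, 15, 16 and 23, so that positions 2 to 14 were unbroken. The best miR-7 match (chrX:61183570-61183593) was complementary at 17 of 24 positions, and positions 12, 13 and 14 were among those without a complement.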

How the data were processed

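Raw read counts per microRNA gene were deposited by the authors, who name mm10 and GENCODE M21 in notes beside them. For the aligner and counter, the entry is: not given in the sources used here. Reads were below 30 nt and adapters were trimmed after a different document in each library, per the labels' protocols. The 3 columns of a library have equal sums once the 4 classes of reads on no gene are included. Multi-mapping reads form a class of their own among these, outside every gene. The sense column was used, and library sizes exclude the 4 classes of reads on no gene.

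CPM, exact Clopper-Pearson 95% intervals and Fisher exact tests (Benjamini-Hochberg at 0.05 over genes averaging at least 10 counts) were computed with scipy 1.17.1. Ratios used 0.5 added counts, TMM from edgeR 4.0.16 and size factors from DESeq2 1.42.0. The test was checked on simulated counts that held counting error only, with the scale of the libraries known. That check does not cover further spread between libraries. All 2202 identifiers matched GENCODE M21. Shared stretches were searched among annotated hairpins only, on both strands. Reads carry no molecular identifiers in these tables, so intervals cover counting error only.

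The 4 genes and the lists were chosen with earlier results of these data known. Other microRNA genes named are those next in rank, the 3 nearest in level, and up to 4 leading members of the neuronal and endocrine lists. The Mir124a and Mir9 genes of the neuronal list, and Mir200c of the endocrine list, were named outside this rule. Alternatives changed strand, scaling, added counts, the filter and the libraries used.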

Additional observations from a re-analysis of the deposited data

How the results depend on the processing

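No paired analysis was possible because there is 1 group of 2 libraries. Of 69 values recomputed with another choice of strand, scaling, filter or library, 66 were held as unchanged and 3 moved further. A ratio had to keep its direction and its side of the threshold. A level, sum, share or rank had to move by less than the SD of the libraries, and a count of genes to stay within 1.5-fold. Many of the 66 were fixed in advance. With 2 libraries, leaving out 1 always moves a level, sum or share by less than their SD. The Fisher exact p does not use the scaling, so its side of the threshold could not change with it. The Mir671 level was 2129 CPM when the gene of highest level was left out of the total. Its rank was 45 among genes that share fewer than 18 bases, and 59 to 63 with 1 library left out. Mir7-1 and Mir7-2 share 24 bases and have no rank under that setting. All 4 genes were called lower in replicate 2 under each filter and without strand. The shares of tested genes called lower were 21.1% with no filter, 47.3% at a mean of 50 or more counts and 35.4% without strand. All 4 genes passed each filter and had the same counts with and without strand, so these calls could hardly change. Without replicate 1 the levels of Mir7-1, Mir7b and the Mir7 sum were 25.2, 893 and 1067 CPM, each more than 1.5 times below the mean. The labels do not name the animals, so the SD over 2 libraries is not known to be a spread between animals.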

Other observations

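A list of endocrine and secretory microRNAs was described because miR-7 is also abundant in endocrine cells. Of 9 listed genes 8 were tested, of which 2 were lower in replicate 2, Mir375 and Mir200c, and 6 higher, against 35.6% lower and 18% higher over all tested genes. They had a median log2 ratio of 0.68 under TMM and 0.52 under totals, against -0.02 and -0.18 over all genes. The list summed to 922 CPM in replicate 1 and 1072 CPM in replicate 2. Mir375, an islet and pituitary microRNA with the highest mean level of the list, was lower, at 496 and 297 CPM with a log2 ratio of -0.58, as the Mir7 genes were. Mir200b, Mir429 and Mir183 were higher, at 2.08, 0.56 and 0.78. Several of these genes are cut from shared transcripts and are not independent.

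Cyrano, annotated as 1700020I14Rik on chromosome 2, was added after its sequence had been seen. Its longest transcript of 8300 bases held 2 matches to GTCTTCC. The match at base 2952 is shown because its upstream bases continue the complement of miR-7, with the seed match in capitals.
Cyrano match: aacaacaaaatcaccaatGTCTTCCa
Within 20 bases upstream of this match, all 13 bases from position 11 to position 23 of miR-7a-5p and miR-7b-5p had an unbroken complement. At the other Cyrano match the longest such run was 3 bases. Among the 123 matches of the Cdr1as exon the median was 5 and the highest 7.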
